A study of Mus musculus with 42 samples.

Results

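Brown adipose tissue (BAT) and white adipose tissue (WAT) of mice given water alone were set against each other. The comparison took all 7 BAT arrays and all 7 WAT arrays whose titles name water given 4 h before the tissue was taken, that is 14 of the 42 arrays of the series. The other 28 arrays held liver of the same design and the 3 tissues of mice given VAAM, an amino acid mixture modelled on the saliva of hornet larvae. All were male mice of the outbred ddY stock, 5 weeks old on arrival and acclimated for 1 week, with no genetic change. The water mice received 37.5 μL of water per g of body weight by feeding tube once daily for 5 days and were killed 4 h after the last dose, and the VAAM mice received the mixture in the same volume and at the same times. Food was withdrawn shortly before the last dose. The labels name neither the depot from which the fat was cut nor whether BAT and WAT of the same number came from the same mouse. The study's methods give 7 mice in the water group and report that both fats were collected. The 7 BAT and 7 WAT arrays thus likely share mice, but no source ties an array number to a mouse.

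White adipocytes store triglyceride in a single large droplet and release fatty acids and hormones such as leptin. Brown adipocytes hold many small droplets and dense mitochondria, and the uncoupling protein UCP1 in the inner mitochondrial membrane lets protons return without the making of ATP, so that the energy of fuel oxidation is set free as heat. Noradrenaline from sympathetic nerves turns this on through beta-adrenergic receptors and cyclic AMP.

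Each value is the deposited log2 value of a probe set on an Affymetrix mouse expression array, and each difference is the mean of the 7 BAT arrays minus the mean of the 7 WAT arrays. The distributions of the arrays were nearly the same within each tissue and differed across tissues. The medians of the 14 BAT arrays of the series lay between 6.774 and 6.775, those of the 14 WAT arrays between 6.908 and 6.913 and those of the 14 liver arrays between 6.729 and 6.730. The 75th percentiles were 7.70 in BAT and 8.02 to 8.03 in WAT. Probe sets at the same rank differed between the tissues by a median of 0.126, whereas the median SD of a rank within a tissue was 0.000507 in BAT and 0.0018 in WAT. No source used here says whether the tissues were processed together, so tissue and a separate processing of each tissue cannot be told apart. The offset was not constant, since it grew to -0.35 at the 85th percentile and was positive at the top of the range.

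**Figure D1:**
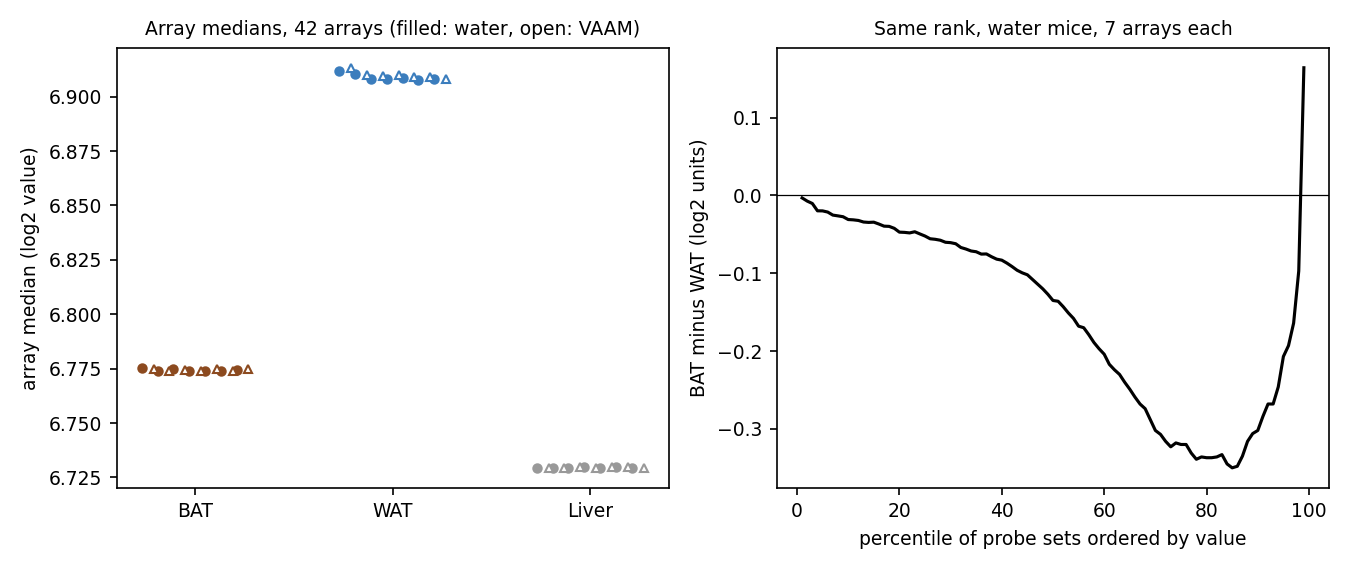
Left, the median log2 value of each of the 42 arrays by tissue (filled circles, water mice; open triangles, VAAM mice). Right, the BAT minus WAT difference in log2 units between values of the same rank, averaged over the 7 water arrays of each tissue. The medians fall into 3 separate levels, at 6.77 in BAT, 6.91 in WAT and 6.73 in liver, and the offset between BAT and WAT is -0.35 at the 85th percentile.

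Within a tissue the summary method left almost no spread. The median pooled SD of a probe set was 1.53e-05, and 173 of 45037 probe sets (0.384%) had a pooled SD over 0.1. As a result, 99.8% of the probe sets passed an adjusted p under 0.05 by limma, and in 99.7% the 7 BAT and 7 WAT values did not overlap. A p-value or a separation of the groups thus said little about a single gene, and a gene is called here only if it passed limma's adjusted p under 0.05 and also differed by at least 1 log2 unit, nominally a 2-fold difference. The differences are not calibrated fold changes.

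By this rule 801 probe sets (1.78%) were higher and 2362 (5.24%) were lower in BAT. With 1 probe set for each of 18193 genes, 465 genes (2.56%) were higher and 1233 (6.78%) lower, and the median difference over all genes was -0.11. With the mean over the probe sets of a gene instead, 335 genes were higher and 740 lower. Of 1112 called genes with several probe sets, 448 had another probe set called the same way and 3 had one called the opposite way. The split between the directions depended on the scale. After quantile normalization of the 14 arrays together, 46.1% of the called probe sets were higher in BAT (1204 higher and 1405 lower) against 25.3% on the deposited scale, and the median over all genes was 0.03. Of the probe sets called on the deposited scale, 775 of the 801 higher and 1396 of the 2362 lower were called the same way after joint normalization. The imbalance towards lower calls is therefore not read as a property of brown fat. Where the call of a named gene changed after joint normalization, its value is given beside it, and the list counts that changed are gathered after the lists. Every list count below stands beside these shares over all genes, and 1 or 2 called genes are not read as a result about a list.

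**Figure D2:**
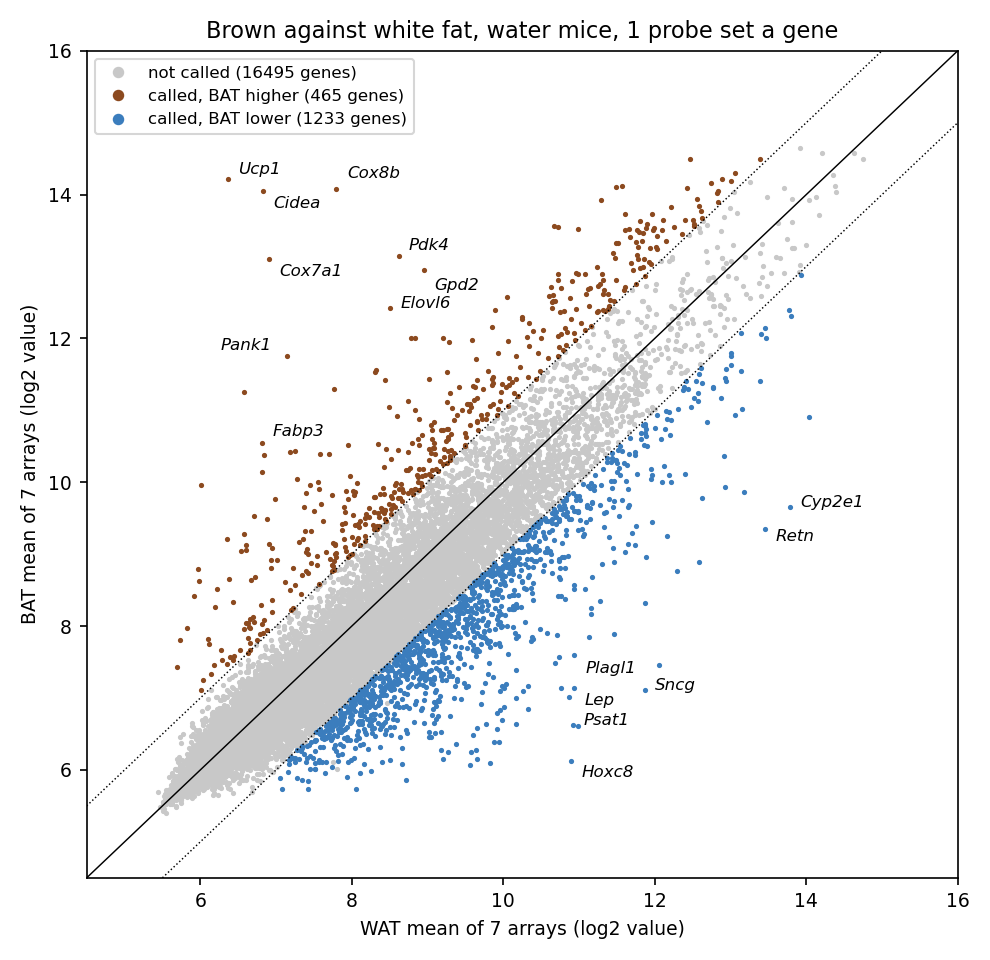
Mean log2 value of each of 18193 genes in the 7 BAT arrays (vertical) against the 7 WAT arrays (horizontal) of the water mice, with 1 probe set a gene. The solid line marks equal values and the dotted lines a difference of 1; brown points are the 465 genes called higher and blue points the 1233 called lower in BAT, with *Ucp1* and *Cidea* farthest above and *Hoxc8*, *Sncg* and *Plagl1* farthest below.

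The markers agreed in direction with the labels of the tissues. *Ucp1* was at 14.22 in each of the 7 BAT arrays and at 6.36 in each of the 7 WAT arrays, a difference of 7.86. The WAT value lay under 6.78, the 95th percentile of the 44 olfactory receptor probe sets in WAT, which is taken here as the level of genes not used in fat. *Cidea*, a lipid droplet protein of brown adipocytes, was at 14.05 in every BAT array and at 6.82 to 6.83 in the WAT arrays, a difference of 7.22. *Lep*, which encodes the satiety hormone leptin, was at 7.13 to 7.15 in BAT and at 10.93 to 10.94 in WAT, a difference of -3.79. *Ucp1* and *Cidea* had the largest differences upwards of all genes, and *Lep* was among the 12 largest downwards. In bulk tissue, fewer cells of a type and less RNA per cell cannot be told apart, here and in all that follows.

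The bases before the starts of the genes that mark each tissue are shown so that their promoters can be read side by side. They are the 250 bases before the RefSeq gene start in build GRCm38.p6, at chr8:83290098-83290347 on the plus strand for *Ucp1* and at chr6:29059971-29060220 on the plus strand for *Lep*. None of the motifs searched below was in either of them, so both are in lower case throughout.
*Ucp1*: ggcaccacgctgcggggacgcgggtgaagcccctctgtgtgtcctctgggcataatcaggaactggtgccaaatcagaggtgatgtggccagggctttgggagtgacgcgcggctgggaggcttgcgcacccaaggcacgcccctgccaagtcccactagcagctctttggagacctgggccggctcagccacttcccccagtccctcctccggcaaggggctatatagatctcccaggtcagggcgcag
*Lep*: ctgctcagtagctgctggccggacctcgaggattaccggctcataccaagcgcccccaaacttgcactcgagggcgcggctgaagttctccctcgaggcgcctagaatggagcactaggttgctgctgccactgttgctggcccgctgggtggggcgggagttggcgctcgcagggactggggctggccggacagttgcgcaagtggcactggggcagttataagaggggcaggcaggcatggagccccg

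The 12 genes with the largest differences upwards were, beside *Ucp1* and *Cidea*, mostly genes of mitochondria and of fatty acid use. *Cox8b* (14.08 in every BAT array, 7.79 to 7.81 in WAT) and *Cox7a1* (13.10 in every BAT array, 6.90 to 6.91 in WAT), the heart and muscle type subunits of cytochrome c oxidase, differed by 6.29 and 6.19. *Slc27a2*, a fatty acid transporter and very long chain acyl-CoA synthetase, differed by 4.67. *Pank1*, which starts coenzyme A synthesis, differed by 4.61, and *Pdk4*, the kinase that shuts off pyruvate dehydrogenase, by 4.53. *Gpd2*, the mitochondrial enzyme of the glycerol phosphate shuttle, differed by 4.01, the proton channel gene *Otop1* by 3.95, and *Elovl6*, which elongates newly made fatty acids, by 3.92. The fatty acid binding protein *Fabp3* differed by 3.73 and the acyl-CoA thioesterase *Acot11* by 3.54. In all 12 the lowest BAT value was at least 3 log2 units above the highest WAT value. Standard errors in these 12 genes ran from 1.53e-05 to 0.0505, the largest being that of *Fabp3*.

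The 12 largest differences downwards began with *Hoxc8*, a homeobox gene (6.12 to 6.13 in BAT, 10.90 in WAT, difference -4.77), *Sncg*, which encodes gamma-synuclein (7.11 to 7.12 in BAT, 11.86 to 11.87 in WAT, -4.75), and the imprinted zinc finger gene *Plagl1* (-4.59). *Gpt2*, the mitochondrial alanine aminotransferase, differed by -4.37 and *Psat1*, an enzyme of serine synthesis, by -4.31. Both lay in BAT under 6.80, the 95th percentile of the olfactory receptor probe sets there. *Cyp2e1*, an ethanol and acetone metabolizing cytochrome P450, was high in both tissues and differed by -4.13. *Retn*, which encodes the hormone resistin, differed by -4.10, the Wnt inhibitor *Apcdd1* by -3.86, the collagen binding proteoglycan *Fmod* by -3.72, *Lpgat1*, an acyltransferase of phospholipids, by -3.70 and the secreted guidance cue *Sema3c* by -3.62. With *Lep* these make up the 12. No value of the 7 BAT arrays reached that of any WAT array in these genes, but the tissues did not overlap in 99.7% of all probe sets.

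Of 25 measured genes listed for thermogenesis, 20 were higher in BAT and 0 lower, with a list median of 2.30. The list was drawn from known brown fat genes, so its direction is no independent evidence. The coactivators of mitochondrial gene expression *Ppargc1b* and *Ppargc1a* differed by 2.98 and 1.63. *Dio2*, the deiodinase that makes active thyroid hormone inside brown fat, was at 7.51 to 7.74 in BAT and at 6.28, under the olfactory receptor level, in every WAT array. Its difference was 1.39, but the mean over its 3 probe sets, which agree in sign, was 0.61. Among the 5 members that were not called, *Them4* differed by -0.04 and *Epsti1* by -0.59. *Prdm16*, the transcriptional coregulator best known for brown adipocyte identity, was at 7.15 in every array of both tissues. Its 4 probe sets disagreed in sign, and their mean differed by 0.50.

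Respiratory chain genes were mostly higher in BAT. All 14 measured genes of complexes II and III and cytochrome c were called higher, with a median of 1.54. Examples are *Cyc1* (1.91), *Sdhb* (1.76), *Sdha* (1.49, or 0.68 as a mean over its probe sets) and, at the low end, *Cycs* (1.20) and *Uqcrb* (1.10). *Sdhd*, a membrane anchor of succinate dehydrogenase, had the largest difference of the group (1.93 ± 0.32, SE) and was one of the few such genes that varied between arrays. It was at 7.56 in BAT array 2 and at 9.52 to 9.86 in the other 6, against 6.58 in WAT array 2 and 7.48 to 7.72 in the other 6, so the groups overlapped (two-sided exact permutation p = 0.00117, with arrays not paired). Between arrays of the same number the difference was 0.984 for array 2 and 2.05 to 2.14 for the other 6. Of 34 complex I genes, 27 were higher, with a median of 1.19, from *Ndufs1* (1.86) and *Ndufv1* (1.76) down to *Ndufa2* (0.41) and *Ndufb4* (0.16), the last of which was under the olfactory receptor level in both tissues.

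In complex IV, 8 of 18 genes were called. Outside *Cox8b* and *Cox7a1* the called genes differed by 1.19 to 1.38, with *Cox5a* at 1.38, while the common subunit *Cox4i1* was at 0.91. The alternative subunits *Cox4i2* and *Cox6a2* differed by -0.04 and 0.20. The ATP synthase had genes called in both directions. Of its 17 genes 9 were higher, among them *Atp5d* (1.66), *Atp5o* (1.39), *Atp5a1* (1.14) and *Atp5b* (1.06), but *Atp5g1*, a gene for the membrane ring subunit c, was lower in BAT (7.95 against 9.81, -1.86) in both of its probe sets. *Atpif1*, the inhibitor of the synthase, was also lower (-1.84), although only 1 of its 3 probe sets had that sign and their mean was -0.57. *Atp5a1*, *Atp5b*, *Cycs* and *Uqcrb* fell under the size limit after joint normalization, at 0.95, 0.88, 0.997 and 0.98, and the count for complex I was then 21.

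The tricarboxylic acid cycle and beta-oxidation feed this chain with electrons. Of 21 genes of the cycle and of pyruvate dehydrogenase, 19 were higher, with a median of 1.76. Among these 19, *Sdha*, *Sdhb*, *Sdhc* and *Sdhd* were already counted with complexes II and III. *Sucla2* differed by 2.54, *Dlat* by 2.31, *Idh3a* by 2.12 and *Cs*, citrate synthase, by 1.75. *Suclg2*, a subunit of the GTP-forming succinyl-CoA synthetase, was at 0.89 (1.16 after joint normalization) and pyruvate carboxylase, *Pcx*, at -0.36. For *Sucla2* 1 of 3 probe sets had the other sign, and the mean over the 3 was 0.84. Of 26 genes of fatty acid oxidation, 21 were higher and 1 was lower. *Acadvl*, the very long chain acyl-CoA dehydrogenase, was at 13.57 in every BAT array and 10.67 in every WAT array (2.90), and *Hadha*, of the trifunctional protein, differed by 2.81. The single lower gene was *Cpt1a*, the liver type of the carnitine palmitoyltransferase at the outer membrane (7.78 against 9.56, -1.77), while its inner membrane partner *Cpt2* differed by 2.50 and the carnitine carrier *Slc25a20* by 1.95. No other type of the outer membrane enzyme was among the 26, so that step as a whole was not compared. The peroxisomal thiolase *Acaa1a* was at -0.83.

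Mitochondrial carriers were divided, with 8 of 23 higher and 2 lower. *Slc25a35* (1.93) and *Ucp3*, the uncoupling protein homologue of muscle and brown fat (9.33 against 7.46, 1.87), were among the higher ones. The dicarboxylate carrier *Slc25a10* (-2.57) and the aspartate and glutamate carrier *Slc25a12* (-1.52, or -0.77 as a mean over its probe sets) were lower. Of 33 genes for the mitochondrial ribosome, import and genome upkeep, 7 were called higher, led by *Mrpl34* (2.41) and the chaperonin *Hspe1* (1.83), with a list median of 0.85. After joint normalization the count was 18, with *Tfam*, the packaging protein of the mitochondrial genome, moving from 0.92 to 1.21. *Nrf1* and *Polg* differed by -0.30 and 0.02. Of 12 genes for coenzyme A, coenzyme Q and lipoate, 7 were higher, with *Coq8a*, a regulator of coenzyme Q synthesis, at 3.22 after *Pank1*, and *Coq3*, *Coq5*, *Coq6*, *Coq7* and *Coq9*, which build the ring of coenzyme Q or assist in it, between 1.04 and 2.01. As means over their probe sets *Coq3* and *Coq9* were at 0.62 and 0.90.

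**Figure D3:**
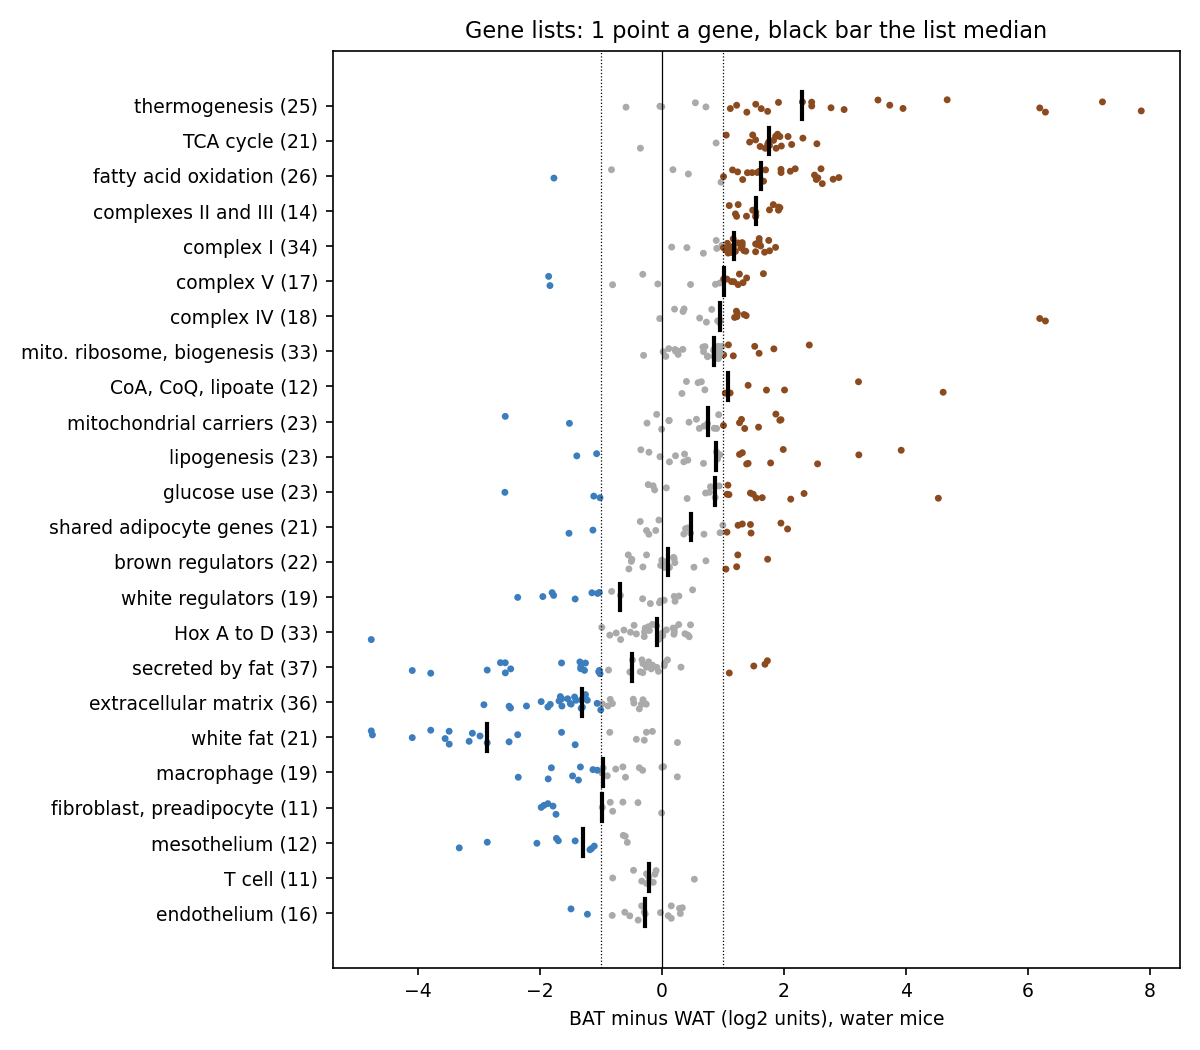
BAT minus WAT difference in log2 units for the measured genes of 24 lists, 1 point a gene, with the number of genes in parentheses, the list median as a black bar and dotted lines at -1 and 1. Brown points lie at 1 or above and blue points at -1 or below; the thermogenesis list has the highest median (2.30) and the white fat list the lowest (-2.87).

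Promoters of the oxidative genes were searched for short motifs of factors known to act on such genes, in the 250 bases before each RefSeq start and on both strands. The cyclic AMP response element, TGACGTCA, was in 6 of 106 genes (5.66%) of the lists for complexes I to V, the cycle and beta-oxidation, against 2.51% of the 14368 measured genes with a promoter in the table. It was in 3.77% of 371 genes called higher in BAT and 1.77% of 963 called lower. The NRF1 site, whose letters stand in capitals in the *Etfdh* promoter below, was in 4 of the 106 (3.77%), against 1.43% of measured genes, and in 2.7% of the higher and 1.66% of the lower genes. The ETS site CCGGAAGT was in 6.6% of the 106, 4.98% of measured genes, 5.12% of the higher and 2.39% of the lower ones. The extended site of the estrogen related receptors, TCAAGGTCA, was in 1 of the 106, 0.376% of measured genes, 0 of the 371 higher and 3 of the 963 lower genes. None of these motifs holds another of them, and a match is a description of the letters and not a bound site.

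Shown here are the promoters of the 3 called mitochondrial genes with the largest differences that hold a cyclic AMP or an NRF1 motif, which stands in capitals. They are *Etfdh*, which passes electrons from beta-oxidation to coenzyme Q (2.10, chr3:79628768-79629017, minus strand), *Ogdh*, of the 2-oxoglutarate dehydrogenase complex (2.07, chr11:6291347-6291596, plus strand, 1 of several starts in the table), and *Ndufa10* of complex I (1.59, chr1:92473759-92474008, minus strand), all in build GRCm38.p6. The motif begins 128 bases before the start in *Etfdh*, where it is the NRF1 site, and 51 and 67 bases before the start in *Ogdh* and *Ndufa10*, where it is the cyclic AMP response element.
*Etfdh*: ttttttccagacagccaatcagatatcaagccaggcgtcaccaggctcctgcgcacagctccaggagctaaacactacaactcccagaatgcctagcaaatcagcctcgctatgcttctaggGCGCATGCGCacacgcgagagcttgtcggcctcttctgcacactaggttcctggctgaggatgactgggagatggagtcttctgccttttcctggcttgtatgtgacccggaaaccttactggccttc
*Ogdh*: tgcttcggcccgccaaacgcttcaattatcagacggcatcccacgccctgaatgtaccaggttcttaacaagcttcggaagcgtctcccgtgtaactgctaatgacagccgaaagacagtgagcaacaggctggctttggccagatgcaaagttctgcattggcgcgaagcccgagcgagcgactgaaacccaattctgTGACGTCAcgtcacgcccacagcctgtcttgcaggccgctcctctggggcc
*Ndufa10*: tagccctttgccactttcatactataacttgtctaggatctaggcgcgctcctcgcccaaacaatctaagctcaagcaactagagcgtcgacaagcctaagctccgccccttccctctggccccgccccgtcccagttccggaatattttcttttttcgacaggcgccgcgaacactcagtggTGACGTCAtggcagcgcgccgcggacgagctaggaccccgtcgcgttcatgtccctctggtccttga

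Of 23 genes that make fat, 9 were higher in BAT, 2 lower and 12 not called, with a median of 0.89. *Fasn*, fatty acid synthase, was at 14.12 in every BAT array and at 11.57 to 11.58 in WAT (2.55), *Acacb*, the mitochondrial acetyl-CoA carboxylase, differed by 3.23 and *Acly*, ATP citrate lyase, by 1.78, with means over their probe sets of 1.63 and 0.90. The desaturase *Scd2* (-1.07) and the monoacylglycerol acyltransferase *Mogat1* (-1.40) were the 2 lower genes, and *Scd2* was at -0.80 after joint normalization and at -0.57 as a mean over its probe sets. For lipid droplets and lipolysis 5 of 13 genes were higher and 2 lower. *Plin5*, which ties droplets to mitochondria, differed by 3.25 and the triglyceride lipase *Pnpla2* by 1.25 (0.77 as a mean over its probe sets), whereas hormone-sensitive lipase, *Lipe*, was at 0.47. *Plin4* (-1.53) and *Cidec* (-1.13), lipid droplet proteins that are also on the list of genes common to all adipocytes, were lower.

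Of 23 genes of glucose use, 10 were higher and 3 lower. *Pkm*, pyruvate kinase, differed by 2.33 and the insulin-responsive transporter *Slc2a4* by 1.45. The transporters *Slc2a3* (6.46 against 9.04, -2.58) and *Slc2a1* (-1.12) were lower, the second of which was at -0.80 after joint normalization. As means over their probe sets they were at -0.995 and -0.77. Glycerol metabolism had 3 of 6 genes higher, among them *Gpd1* (1.95), 2 of whose 4 probe sets had the other sign, with a mean of 0.68. Of 19 genes for the breakdown of branched-chain amino acids, 6 were higher, such as *Pcca* (1.59, or 0.98 as a mean over its probe sets) and *Bckdha* (1.55), and 0 lower, and 3 of 5 genes of ketone and acetate use were higher. Genes of the creatine and calcium cycles did not share this direction. Of 13 on the list, 1 was higher, *Pm20d1*, which encodes the enzyme that joins amino acids to fatty acids (1.98) and is of neither cycle. The 3 lower genes included creatine kinase B, *Ckb* (8.10 against 9.60, -1.49), and *Gamt*, of creatine synthesis (-1.34).

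Of 21 genes common to all adipocytes, 7 were higher and 2 lower, with a median of 0.47. The 2 lower genes were *Plin4* and *Cidec*, already counted with the lipid droplets. *Fabp4*, the adipocyte fatty acid binding protein, was at 14.58 in every BAT array and 14.63 in every WAT array, a difference of -0.05. *Adipoq*, which encodes adiponectin, was at 14.04 and 14.40, *Lpl*, lipoprotein lipase, at 14.12 and 14.38, and the master regulator *Pparg* at 11.17 and 10.48, none of them called. The transcription factor *Cebpb* (2.06) led the higher ones.

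Among transcription factors, 4 of 22 listed as regulators of brown fat were higher and 0 lower. *Zic1* was at 7.42 to 7.43 in BAT and at 5.70 in every WAT array (1.73), *Irf4* differed by 1.24, *Ebf3* by 1.22 and *Ebf2* by 1.05. The means over the probe sets of *Irf4* and *Ebf2* were 0.71 and 0.50. *Klf11* and *Zfp516* were the lowest of the list, at -0.55 and -0.54, and 7 of the 22 were under the olfactory receptor level in both tissues. Of 19 regulators known from white fat and its progenitors, 8 were lower and 0 higher. *Tcf21*, a mesodermal factor of visceral progenitors, was at 6.13 in every BAT array and 8.50 in every WAT array (-2.37), the corepressor *Nrip1* differed by -1.96 and the mesothelial factor *Wt1* by -1.43. *Tbx18* was at -0.04, *Irx5* at 0.50 and *Shox2* at 0.28. After joint normalization 5 of the 19 were lower.

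Hox genes keep a record of position along the body axis. Of 33 measured, only *Hoxc8* was called, in its single probe set, where 6.78% of all genes were called lower. The next lowest were *Hoxd8* (7.83 against 8.82, -0.99) and *Hoxc9* (-0.86), and the highest *Hoxb7* (0.47) and *Hoxa9* (0.45). *Hoxc10* differed by -0.16 and lay under the olfactory receptor level in both tissues, as did 15 of the 33. *Hoxd8* was at -1.03 as a mean over its 2 probe sets, which passes the limit.

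**Figure D4:**
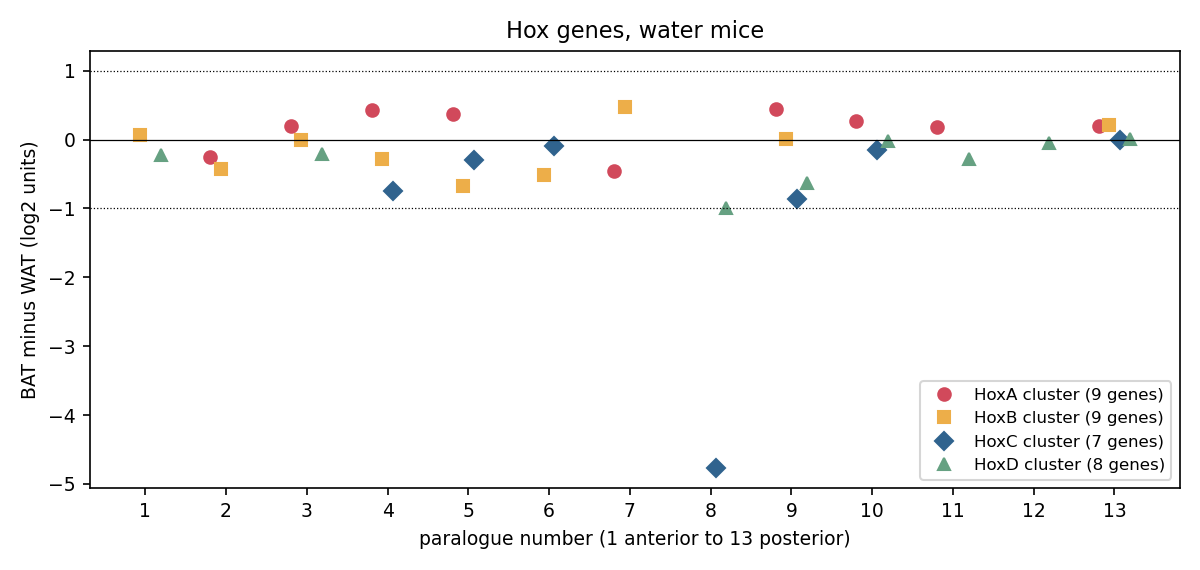
BAT minus WAT difference in log2 units of 33 Hox genes by paralogue number and cluster (colour and shape), with dotted lines at -1 and 1. *Hoxc8* lies at -4.77, and all other genes lie between -0.99 and 0.47.

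Of 25 thyroid hormone and nuclear receptor genes, 4 were higher and 1 lower. Over all genes 2.56% were called higher and 6.78% lower, so the 1 lower gene is not read as a result about the receptors. Of the higher genes, *Dio2*, *Esrra* and *Esrrg* were also counted for thermogenesis. *Ppara*, the receptor that drives fatty acid oxidation genes, was at 10.44 in BAT and 7.25 in WAT (3.19). The estrogen related receptor genes *Esrrg* and *Esrra*, regulators of mitochondrial genes, differed by 1.91 and 1.12, and the mean over the probe sets of *Esrra* was 0.59. *Nr2f2* was lower at -1.03, and at -0.73 after joint normalization and -0.78 as a mean over its probe sets. The deiodinase *Dio1* was under the olfactory receptor level in both tissues. Of 23 genes of adrenergic and cyclic AMP signalling, 5 were higher and 1 lower, and the 1 lower gene is again not read as a result about the group. The phosphodiesterases, which degrade cyclic AMP, differed in opposite directions, with *Pde4d* at 2.697 and *Pde4b* at -1.32, although 2 of the 6 probe sets of *Pde4b* had the other sign and their mean was -0.51. *Akap1*, which anchors protein kinase A at mitochondria, differed by 2.38, and the other 3 higher genes were *Rgs7* (1.59), *Nr4a2* (1.43, or 0.66 as a mean over its probe sets) and *Rgs2* (1.29).

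The white fat list had 15 of 21 genes lower in BAT and 0 higher, with a median of -2.87, again for genes that were listed because they are known from white fat. Beside *Hoxc8*, *Sncg*, *Retn* and *Lep*, *Agt*, which encodes angiotensinogen, was at 7.09 in BAT and 9.96 in WAT (-2.87). The activin antagonist *Fst* was at 0.25. Of 37 genes for proteins that fat secretes, 16 were lower and 4 higher, and 12 were lower after joint normalization. *Igf1*, insulin-like growth factor 1, was at 8.88 to 8.90 in BAT and at 11.46 in WAT (-2.57), in the same direction in all 4 of its probe sets. The higher ones included *Nrg4*, a neuregulin secreted by brown fat (10.60 against 8.87, 1.73), and the vascular growth factor *Vegfa* (1.69). Of 21 antioxidant and heme genes, 4 were higher and 3 lower. The higher ones were *Gpx3*, plasma glutathione peroxidase (2.02), and the mitochondrial defence genes *Txn2* (1.54), *Sod2* (1.37) and *Prdx3* (1.15). The lower ones were the glutathione transferases *Gsta3* (-3.36), *Gstz1* (-1.74) and *Gstm2* (-1.40).

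Of 36 measured genes of the extracellular matrix, 25 were lower and all 36 had a negative difference, with a median of -1.31. *Fn1*, fibronectin, was at 8.34 to 8.37 in BAT and at 11.27 to 11.28 in WAT (-2.92), and *Dpt*, dermatopontin, differed by -2.51. Among the fibrillar collagens, *Col1a2* differed by -1.31, *Col3a1* by -0.98 and *Col1a1* by -0.85, the first of these called. After joint normalization 23 of the 36 were lower, and *Col3a1* was at -1.15.

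Markers of other cells of fat tissue were counted in the same way. Over all genes 6.78% were called lower and 2.56% higher, so a count of 1 or 2 genes is not read as a result about a cell type. For macrophages 8 of 19 were lower, led by the growth factor receptor *Csf1r* (9.37 to 9.43 against 11.75, -2.36) and lysozyme, *Lyz2* (-1.87). *Adgre1*, which encodes F4/80, was at -1.13, and at -0.82 after joint normalization, when 6 of the 19 were lower. For fibroblasts and preadipocytes 5 of 11 were lower, among them *Dcn*, decorin (-1.98), *Dpp4* (-1.94) and *Pdgfra* (-1.74, or -0.95 as a mean over its probe sets). *Dcn* and *Lum*, both among these 5, were already counted with the matrix. For endothelium 2 of 16 were lower, the tight junction gene *Cldn5* (-1.49) and *Vwf* (-1.22, or -0.95 after joint normalization), while *Pecam1* was at 7.87 and 7.90. For lymphatic endothelium 3 of 6 were lower, among them *Lyve1* (-1.99) and *Mmrn1* (-1.70, or -0.89 as a mean over its probe sets). For smooth muscle and pericytes 4 of 13 were lower, led by *Acta2* (-1.79), and after joint normalization 1 was lower and 1 higher. *Acta2* was at -0.83 as a mean over its 3 probe sets. Of 11 T cell genes 0 were called, the lowest being *Thy1* at -0.81, and of 9 B cell genes *Ighm* alone was lower (-3.17), in 6 of its 11 probe sets, whose mean was -0.50. For neutrophils and mast cells 1 of 13 was lower. Of 5 erythrocyte genes 0 were called, and 4 were under the olfactory receptor level in both tissues. For Schwann cells and nerve 1 of 13 was higher, *S100b*, a calcium binding protein that adipocytes also make (9.49 against 6.89, 2.60 ± 0.19, SE), and 2 were lower, *Pmp22* (-1.20, or -0.97 after joint normalization) among them. Of 7 liver genes *Cyp2e1* alone was called.

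Genes of mesothelium, the lining of the body cavity, were lower in BAT in 9 of 12 cases and 0 were higher. *Upk3b* was at 6.25 in every BAT array and at 9.56 to 9.58 in the WAT arrays (-3.33), *Gpm6a* differed by -2.87 and *Msln*, mesothelin, by -1.11 (-0.95 after joint normalization). Of the 12, 10 were under the olfactory receptor level in BAT and 0 in WAT, and the 9 calls were also made without the 3 arrays named below. Of 12 genes of simple epithelia 3 were lower, namely the keratins *Krt8*, *Krt18* and *Krt19*, which are also on the mesothelial list, and *Krt8* moved from -1.16 to -0.95 after joint normalization.

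WAT also held genes of the epididymis, the duct that stores sperm, and in unequal amounts. Of 13 such genes 7 were lower in BAT, where all 13 were under the olfactory receptor level. *Lcn8*, a lipocalin of the epididymal lumen, was at 13.39 and 12.60 in WAT arrays 1 and 2, at 8.01 to 8.76 in the other 5 and at 6.58 in every BAT array (-3.08 ± 0.85, SE, adjusted p 0.00336 by limma). *Gpx5*, epididymal glutathione peroxidase, was at 11.91 and 11.33 in the same 2 arrays, at 9.07 to 9.47 in the other WAT arrays and at 6.79 in BAT (-3.12 ± 0.44). *Lcn9* differed by -3.02 ± 0.91. The other 4 called were *Lcn2* (-2.65), which macrophages and adipocytes also make, *Cst11*, *Adam7* and *Rnase10* (-2.15). The mean of the list ran from 7.21 to 11.21 over the WAT arrays. For *Lcn8*, *Lcn9* and *Gpx5* no WAT array reached down to a BAT array, and the two-sided exact permutation p was 0.000583, the smallest that 7 against 7 allows. The tissues were also apart in 99.7% of all probe sets, so this does not single these genes out. Without BAT array 1 and WAT arrays 1 and 2, 5 of the 13 were lower. *Adam7* and *Rnase10* were then under the limit, at -0.81 and -0.756 against -2.44 and -2.15 with all arrays, and *Cst11* was at -1.01 against -2.59.

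BAT held genes of skeletal muscle, again in unequal amounts. Of 29 such genes 10 were higher in BAT and 0 lower, and 19 were under the olfactory receptor level in WAT. *Acta1*, the gene of skeletal muscle actin, was at 15.10, 13.82 and 11.61 in BAT arrays 1, 3 and 7, at 7.32 to 8.58 in the other 4 and at 7.17 to 7.20 in WAT. Its difference was 3.24 ± 1.14 (SE, adjusted p 0.0144 by limma, two-sided exact permutation p 0.000583). That permutation p is shared by the 99.7% of all probe sets whose values did not overlap. *Tnnc2*, fast troponin C, followed the same arrays, at 13.50, 12.08 and 9.91 against 6.81 to 7.58 in the other 4 and 6.35 in WAT (2.86 ± 0.99). *Myh4* and *Ttn*, which encode fast myosin and titin, differed by 2.82 and 2.50, and the mean over the 6 probe sets of *Ttn* was 0.85. The other called genes were *Myh1* (2.65), *Mylpf* (2.52), *Tnnt3* (1.64), *Pvalb* (1.44), *Tnni2* (1.42) and *Myl1* (1.14), all of fast muscle. Without BAT array 1 and WAT arrays 1 and 2, 8 of the 29 were higher, and *Acta1* differed by 2.46. The mean of the list ran from 6.81 to 8.84 over the BAT arrays and was 6.61 in every WAT array.

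**Figure D5:**
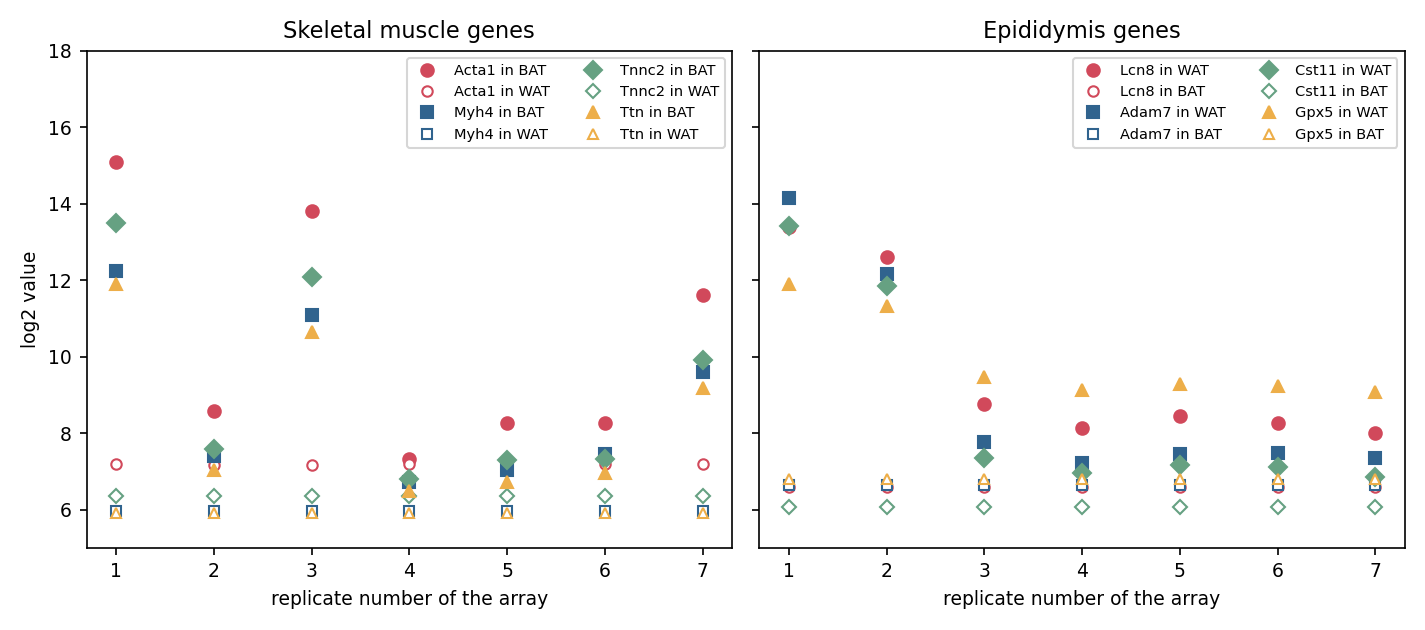
Log2 values of 4 skeletal muscle genes (left) and 4 epididymis genes (right) in each of the 7 arrays of each tissue from the water mice, by the replicate number of the array. Filled symbols are BAT on the left and WAT on the right, and open symbols are the other tissue; muscle genes are high in BAT arrays 1, 3 and 7 and epididymis genes in WAT arrays 1 and 2.

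Some oxidative genes are also used by muscle, so their values were set beside those of *Acta1*. *Cox7a1* and *Cox8b* were at 13.10 and 14.08 in every BAT array, *Ucp3* at 9.33 in every BAT array, *Pdk4* at 13.15 in every BAT array and *Fabp3* at 10.54 to 10.56, over arrays in which *Acta1* ran from 7.32 to 15.10. Over all probe sets, 797 were higher and 2347 lower without the 3 arrays, which left in BAT arrays 3 and 7 with *Acta1* at 13.82 and 11.61. *Retn* was at 13.45 in every WAT array and *Fn1* at 11.27 to 11.28, over arrays in which *Lcn8* ran from 8.01 to 13.39. Constant values were the rule after this summary, with 0.384% of all probe sets at a pooled SD over 0.1, so they cannot show where a signal came from. What muscle or epididymis in the samples had to do with the other differences was not tested.

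For 3 general groups the counts are set beside the shares over all genes, 2.56% called higher and 6.78% called lower. Of 23 ribosomal protein genes *Rps2* alone was called, at -1.02, and of 17 clock genes 0 were called, with *Arntl* at -0.06, *Per1* at -0.94 and *Bhlhe40* at 0.99. The last of these was at 1.30 after joint normalization and was then called. Of 13 cell cycle genes *Mki67* (-1.08) and *Cdk1* (-1.05) were lower and 10 were under the olfactory receptor level in BAT. After joint normalization 0 were called by limma and the limit, with *Mki67* at -0.92 and *Cdk1* at -0.84. Of 12 testis and sperm genes 1 was lower. The difference between 3' and 5' control probe sets, a measure of RNA integrity, was -0.23 in BAT and -0.02 in WAT for *Gapdh* and 1.10 and 0.91 for beta-actin, and its part in the differences was not tested.

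After joint normalization the counts of several lists differed from those above. More genes were then called higher for mitochondrial carriers (11), branched-chain amino acid breakdown (8), complex IV (9), beta-oxidation (22), coenzymes (8), shared adipocyte genes (8), glucose use (11), adrenergic signalling (6), nuclear receptors (5) and the clock (1). Fewer were called higher for complexes II and III (12) and complex V (6). Fewer were called lower for mesothelium (7), glucose use (1), endothelium (1), simple epithelia (2), nerve (1), lipogenesis (1), creatine and calcium cycles (2), nuclear receptors (0) and testis (0), and more for fibroblasts (6). With the mean over the probe sets of a gene, many list counts fell. Fewer were called higher for complex I (21), complex IV (5), brown regulators (2), shared adipocyte genes (4) and branched-chain amino acid breakdown (2). Fewer were called lower for secreted proteins (10) and the matrix (18). More were called higher for adrenergic signalling (6) and antioxidant and heme genes (5). More were called lower for mesothelium (10), simple epithelia (4) and Hox genes (2).

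The same contrast in the 14 arrays of the VAAM mice, whose medians lay at the same level within each tissue, gave 801 probe sets higher and 2382 lower (1.78% and 5.29%), and 465 genes higher and 1246 lower (2.56% and 6.85%). *Ucp1* differed by 7.86, *Cidea* by 7.22, *Lep* by -3.79, *Hoxc8* by -4.77 and *Cpt1a* by -1.77, beside 7.86, 7.22, -3.79, -4.77 and -1.77 in the water mice. The thermogenesis list had 20 of 25 genes higher and the matrix list 25 of 36 lower, as in the water mice. The epididymis list had 10 of 13 lower, and *Acta1* differed by 3.77. A test of the difference between the VAAM and water contrasts by limma's interaction term passed for 0 of 45037 probe sets, the smallest adjusted p being 0.0537, and 1777 probe sets had an unadjusted p under 0.05. Over the 14 arrays of a tissue, water and VAAM together, the median SD of a probe set was 1.06e-05 in BAT and 1.41e-05 in WAT. Values that close give nearly the same contrast in both sets of mice, so the VAAM contrast is no independent repeat.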

How the data were processed

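Expression was measured on 42 Affymetrix mouse expression arrays (3 tissues, 2 treatments, 7 arrays each), of which 14 entered the main comparison. The authors summarised the scanned arrays with the distribution free weighted method in R (version 2.7.2 per the labels), and deposited logarithms whose base is not given in the sources used here, read here as log2 values. The method shrinks deviations between arrays of a run by an amount that differs by probe set, so SDs are too small and differences are not calibrated fold changes. Array data carry no read depth, and the number of arrays limits the precision. Nothing in the labels says that the samples are independent beyond being separate arrays, so p-values measure the spread between these samples. By the study's methods BAT and WAT were collected from the same group of 7 mice. The main fit and the permutation tests nevertheless took the 14 arrays as unpaired.

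Of 45101 probe sets, 64 controls were left out. BAT and WAT were compared with limma 3.58.1 (lmFit, eBayes) in R 4.3.3 over all 45037, with Benjamini-Hochberg adjustment, and called at an adjusted p under 0.05 and a difference of at least 1. Of the probe sets, 34945 named 1 gene, 932 several and 9160 none. A gene was represented by its probe set with the highest mean over the 14 arrays, and by the mean over its probe sets as an alternative. The genes named are the 12 with the largest difference in each direction, the markers, the ends and defining members of each list, the Hox, Ucp and Dio genes and genes shown in a plot, and a few others named after their values were seen. The lists (48, with 773 of 854 genes measured) and the comparison were chosen with earlier results of these data known. Some genes are on more than 1 list, so the counts of the lists are not independent of each other. Limma and rank products were first run on simulated arrays with independent noise. For rank products the simulated spread was far wider than that of these data, so that run does not show how the test behaves on them. Promoters came from RefSeq (GRCm38.p6). Alternatives covered scaling, filters, size limit, test, prior, replicate block and left-out arrays. Python 3.11.15 with numpy 2.4.6, pandas 2.3.3 and matplotlib 3.10.9 was used for counts and plots.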

Additional observations from a re-analysis of the deposited data

Results flagged for a closer look

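An array stood apart from the other 6 of its group, by the ratio of its gap to the whole range of the group, in 27 of 436 groups (218 named genes in 2 tissues), or 6.19%. Chance gives about 1 in 20 groups, here 21.8. In 3 genes the range was over 0.1 log2 units. *Sdhd* was lowest in array 2 of both tissues, with a ratio of 0.852 in BAT (range 2.3) and 0.788 in WAT (range 1.14), and it was also lowest in liver array 2 of the water mice, at 6.77 against 8.08 to 8.39. *S100b* was highest in WAT array 5 (ratio 0.856, range 1.39), at 8.01 against 6.62 to 6.82. *Fabp3* was highest in WAT array 2 (ratio 0.948, range 0.371).

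In the remaining 23 cases the range was at most 0.0217. In BAT the ratios were 0.576 for *Acacb*, 0.569 for *Apcdd1*, 0.621 for *Atp5d*, 0.647 for *Atpif1*, 0.685 for *Cox8b*, 0.633 for *Etfdh*, 0.579 for *Fabp3*, 0.624 for *Fasn*, 0.671 for *Gpd1*, 0.59 for *Hoxc8*, 0.587 for *Pank1*, 0.579 for *Plin5*, 0.65 for *Pmp22*, 0.583 for *Nr4a2*, 0.585 for *Sod2* and 0.643 for *S100b*. In WAT they were 0.594 for *Cyp2e1*, 0.633 for *Dlk1*, 0.627 for *Etfdh*, 0.653 for *Fmod*, 0.639 for *Mmrn1*, 0.702 for *Coq7* and 0.586 for *Nrf1*.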

How the results depend on the processing

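Against 801 probe sets higher and 2362 lower, quantile normalization of the 14 arrays together gave 1204 and 1405, a size limit of 2 gave 129 and 304, no size limit gave 16640 and 28293, and rank products gave 5052 and 5105. In the VAAM mice quantile normalization gave 1209 higher and 1423 lower against 801 and 2382. Centring each array on its median gave 1014 and 1746, so that 36.7% of calls were higher in BAT. Leaving out 1 array at a time gave 800 to 801 higher and 2352 to 2369 lower. Leaving out BAT array 1 and WAT arrays 1 and 2 together, an alternative chosen after seeing the data, gave 797 and 2347. The filters on low values, limma's treat, the trend and robust prior and 1 fit over the 42 arrays gave 786 to 801 higher and 2260 to 2365 lower. With the replicate number as a block the counts were 801 and 2359. Same-numbered arrays of the 2 tissues had correlations of -0.019 to 0.15 in their deviations, over 0.1 in 5 of 7 pairs, and 5 of 7 BAT arrays correlated best with their own number. In the water mice *Sdhd* was lowest in array 2 and highest in array 7 of BAT, of WAT and of liver. In the VAAM mice it was highest in arrays 6 and 7 of each tissue. Both observations are hints that the same number means the same mouse, but neither the labels nor all 7 pairs show it. The comparison was left without the block, so mice that the tissues likely share were treated as unpaired.

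Of 218 named genes none changed direction while called. The call was lost by 16 under quantile normalization, by 11 under centring and by 29 with the mean over the probe sets of a gene. *Adam7* lost it under the block and under 8 of the 14 omissions of an array, and *Cst11* and *Rnase10* without WAT array 2 (-2.06 and -1.685). The causes were not tested. Genes whose signal lay under the olfactory receptor level in both tissues could not be compared.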

Other observations

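Genes of serine and amino acid synthesis, chosen after their values were seen, were called lower or not called. *Psat1* and *Phgdh*, the enzymes that lead from glycolysis to phosphoserine, were lower in BAT (-4.31 and -1.85), the latter in all 4 of its probe sets, while *Psph*, which completes the serine, was at 0.69. The serine hydroxymethyltransferases *Shmt1* and *Shmt2* were at 0.70 (1.02 after joint normalization) and 0.56 and the asparagine synthetase *Asns* at 0.31. Of the transaminases, *Gpt2* (-4.37) and *Got2* (-1.02) were lower and *Got1* was at -0.18. *Got2* was at -0.70 after joint normalization, -0.88 after centring on the median and -0.29 as a mean over its probe sets. *Slc7a10*, a carrier of small neutral amino acids, was lower (-3.16).

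Imprinted genes, also chosen after their values were seen, included *Plagl1* (-4.59), *Mest* (-3.49), *Nnat* (-3.11), *Grb10* (-1.67), *Ndn* (-1.28) and *Meg3* (-1.07), all lower in BAT. *Meg3* was at -0.83 after joint normalization, and the means over the probe sets of *Grb10*, *Ndn* and *Meg3* were -0.54, -0.73 and -0.50. Other imprinted genes were not called, such as *Sgce* (-0.93), *Peg3* (-0.84), *Igf2r* (-0.62), *Igf2* (-0.10), *Cdkn1c* (0.16), *Dlk1* (-0.01) and *Peg10* (-0.03).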
